A study of Homo sapiens with 24 samples.

Results

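Peaks of N6-methyladenosine (m6A) on intronless protein-coding genes were described in the 6 peak lists of a human pancreatic differentiation series. A peak was a member if it was listed under a single protein-coding gene whose coding isoforms in GENCODE 44 all consist of 1 exon, leaving out histone, HOX and PCDH symbols (71 intronless genes with 154 peaks). The rule gave 957 genes among 19702 protein-coding genes, and 286 of them carried a peak. The members were 2898 of 228472 listed peaks. The stages held 561 (hPSC), 465 (DE), 355 (PP) and 358 (hILO), and the 2 genotypes 565 (WT PP) and 594 (A5-KO PP). All peaks came from the human embryonic stem cell line MEL1 INSGFP/W, which carries GFP at 1 allele of the insulin gene. Batch 1 held the undifferentiated cells (hPSC), their definitive endoderm stage (DE), the progenitors of the pancreas (PP) and the islet-like organoids (hILO), and there m6A was immunoprecipitated from mRNA with a SYSY antibody. Progenitors of the parental cells (WT PP) and of cells lacking ALKBH5, which removes m6A (A5-KO PP, edited with CRISPR-Cpf1 in exon 1 of ALKBH5) formed batch 2, which used total RNA, a Millipore antibody and another library kit. The stages were therefore compared within batch 1 and the genotypes within batch 2. Each list pools 2 immunoprecipitates (IP) and 2 inputs, so the spread between replicates is not known, and the intervals given here cover counting error only.

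m6A is laid on nuclear RNA by the METTL3 and METTL14 methyltransferase complex, mostly within the sequence DRACH (any base but C, then a purine, then AC, then any base but G), of which GGAC is the best known core. In spliced mRNA the mark is known to lie in long internal exons and around the stop codon, and to be scarce in short exons close to splice junctions. Intronless genes have no junctions, and among them are many regulators, such as AP-1 and SOX factors, Frizzled receptors and small GTPases. In bulk lists a peak also needs enough RNA, so fewer cells with a transcript and less transcript per cell cannot be told apart.

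The value columns of the lists limited what could be said of enrichment. The peaks are numbered along the genes, and neighbouring peaks of 1 gene should have similar input reads. In blocks of 1000 peak numbers, the input reads were matched to the genes after moving them by up to 30 numbers in either direction, and a block counted as clear when the best match exceeded the next best more than 2 times. Of the clear blocks, 14 of 33 (hPSC), 12 of 27 (DE), 5 of 21 (PP), 3 of 13 (hILO), 3 of 7 (WT PP) and 4 of 15 (A5-KO PP) matched best where the reads stood. All other clear blocks matched best with the reads moved by 1 to 13 numbers in 1 direction. At peaks with equal bounds in hPSC and DE, Spearman's rho of the input reads across peaks was 0.86 (873 peaks) where both rows lay in a block without displacement and 0.23 (1897 peaks) elsewhere, and over all 4 pairs of lists compared it was 0.77 to 0.92 against 0.12 to 0.27. Reads, log2 enrichment and p-values were therefore tied to a peak only for rows in such blocks, called in step below. These held 90 hPSC, 88 DE, 32 PP and 22 hILO members and none of batch 2, together 8.01% of the members on 36 genes. The cause of the displacement was not tested. Peak positions do not use these columns, and the results on position, motif and sharing below rest on positions alone.

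To show what such peaks look like, the coding-sequence peaks of at most 300 nt with the highest log2 enrichment in step are printed for genes chosen for their number of peaks, their stage or their role in stem cells and pancreas, 1 peak a gene with at least 50 input reads. They are given 5′ to 3′ on the transcript strand from the hg38 genome, with GGAC in capitals. IRF2BPL, a transcriptional regulator, had the peak at chr14:77026268-77026542 on the minus strand in DE, with 154 input and 669 IP reads and a log2 enrichment of 1.98 ± 0.13, the error here being that of counting. FZD7, a Wnt receptor of undifferentiated cells, had the peak at chr2:202034737-202035011 on the plus strand in DE, with 528 input and 1911 IP reads and 1.64 ± 0.071. SOX3, a SoxB1 transcription factor, had the peak at chrX:140504660-140504884 on the minus strand in hPSC, with 59 input and 627 IP reads and 1.58 ± 0.20. FEM1A, a substrate receptor of cullin ubiquitin ligases, had the peak at chr19:4792984-4793183 on the plus strand in DE, with 181 input and 508 IP reads and 1.47 ± 0.12. SOX21, a SoxB2 factor, had the peak at chr13:94711697-94711971 on the minus strand in DE, with 70 input and 253 IP reads and 1.45 ± 0.19.
IRF2BPL: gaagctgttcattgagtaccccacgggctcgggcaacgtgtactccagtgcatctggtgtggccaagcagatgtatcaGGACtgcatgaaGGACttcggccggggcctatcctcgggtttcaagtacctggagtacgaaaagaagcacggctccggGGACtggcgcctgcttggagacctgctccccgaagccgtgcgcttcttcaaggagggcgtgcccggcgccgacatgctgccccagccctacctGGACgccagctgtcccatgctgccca
FZD7: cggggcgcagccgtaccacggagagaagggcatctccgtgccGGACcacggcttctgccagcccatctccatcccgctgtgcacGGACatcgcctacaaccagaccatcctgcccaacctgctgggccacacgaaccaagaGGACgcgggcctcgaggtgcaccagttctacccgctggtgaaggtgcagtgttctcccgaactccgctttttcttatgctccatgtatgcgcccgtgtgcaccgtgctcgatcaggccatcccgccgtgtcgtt
SOX3: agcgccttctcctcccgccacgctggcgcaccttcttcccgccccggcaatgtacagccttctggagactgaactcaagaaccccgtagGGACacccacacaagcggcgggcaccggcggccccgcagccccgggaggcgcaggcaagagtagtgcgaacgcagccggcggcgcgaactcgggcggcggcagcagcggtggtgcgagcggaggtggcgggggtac
FEM1A: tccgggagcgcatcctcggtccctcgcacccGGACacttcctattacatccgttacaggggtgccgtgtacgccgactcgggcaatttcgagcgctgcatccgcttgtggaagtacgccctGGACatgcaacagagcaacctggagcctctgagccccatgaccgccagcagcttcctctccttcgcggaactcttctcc
SOX21: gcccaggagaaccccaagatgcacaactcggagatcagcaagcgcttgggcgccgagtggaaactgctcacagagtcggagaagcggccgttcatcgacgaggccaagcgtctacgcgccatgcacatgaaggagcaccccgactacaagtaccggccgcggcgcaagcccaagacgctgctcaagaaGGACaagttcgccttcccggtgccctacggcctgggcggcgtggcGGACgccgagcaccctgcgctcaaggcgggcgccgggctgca

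The 5 sequences held between 1 and 4 GGAC sites and between 3 and 5 DRACH sites, at 61.5% to 71.6% GC. A 50 nt peak of SOX4, which ranked between SOX3 and FEM1A, held 1 DRACH site and no GGAC. These sequences show a feature shared by most members. GGAC was present in 71.5% (hPSC), 67.5% (DE), 65.6% (PP) and 73.7% (hILO) of members, against 52.9%, 50.8%, 47.3% and 51.6% of peaks of coding genes with introns. Members were also longer, with a median of 200 to 250 nt against 175 nt. Their median GC content was higher too, 56.5% against 50.2% in hPSC and 51.1% against 46.0% in hILO. The shares with GGAC were not matched for GC content. Among hPSC peaks of exactly 200 nt, GGAC was present in 76.9% (20 of 26, 95% Wilson interval 57.9 to 89.0) of members and 61.0% (58.6 to 63.3) of peaks on genes with introns, intervals that overlap. The gap was smaller in DE (65.0% against 58.5%), PP (14 of 20 members against 58.4%), hILO (61.9% against 55.8%), WT PP (64.0% against 57.5%) and A5-KO PP (71.4% against 57.9%), with 20 to 28 members each.

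Per kilobase of exon, GGAC was denser inside members than in the rest of the same transcripts in each list. In hPSC the density was 7.09 sites per kb inside and 3.20 outside, a ratio of 2.21. The ratio fell between 1.80 and 2.04 elsewhere, lowest for PP and highest for DE. For genes with introns the ratio ran from 1.42 to 1.62, and on the opposite strand of the intronless transcripts from 0.95 to 1.13. Within the coding sequence alone the ratio was lower, between 1.17 in hILO and 1.59 in hPSC. For genes with introns it was between 1.08 in hILO and 1.20 in hPSC.

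Members lay mainly in coding sequence and 3′ untranslated region (UTR). By the midpoint of the peak on the longest coding isoform, the coding sequence held 54.4% (50.2 to 58.5) of hPSC members, 53.0% of DE members, 51.8% of PP members and 47.8% (42.6 to 52.9) of hILO members. In batch 2 it held 53.6% of WT PP and 53.1% of A5-KO PP members. The intervals of hPSC and hILO overlapped, and the difference between them was not tested. In genes with introns the share was 53.1%, 51.3%, 56.5%, 54.6%, 49.2% and 57.1% in the same order, and it lay above the interval of the members in hILO and, narrowly, in A5-KO PP (49.0 to 57.0), and below it in WT PP (49.4 to 57.6). This changed for members of the nuclear genome alone. The share with introns then lay within the interval of WT PP (48.2 to 56.5). It lay above those of PP (45.5 to 56.0), hILO (41.6 to 52.0) and A5-KO PP (47.6 to 55.7). The 5′ UTR held 7.69% (5.76 to 10.2) of hPSC members, 4.74% of those of DE, 5.67% of those of PP and 3.91% (2.34 to 6.46) of those of hILO. For WT PP the share was 8.36% and for A5-KO PP 9.15%. Genes with introns showed the same order of lists for 5′ UTR within batch 1, from 6.80% in hPSC to 3.65% in hILO. Near the stop codon, within 200 nt on either side, lay 24.7% (21.3 to 28.4) of hPSC members and 24.8%, 24.4% and 25.1% of those of the later stages, against 20.6%, 22.2%, 20.3% and 21.7% for genes with introns. The shares in batch 2 were 21.9% and 19.7%, against 19.1% and 18.1%.

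The 2 gene classes also differed over the coding sequence as a whole. Among genes with a peak in the list, 36.9% of the coding bases of intronless genes lay in peaks in hPSC. The share was 29.0% for DE, 26.6% for PP, 28.7% for hILO, 46.1% for WT PP and 36.1% for A5-KO PP. For genes with introns the values were 16.2%, 13.6%, 13.6%, 15.9%, 20.6% and 18.6%. The share in genes with introns differed by the type of exon. In hPSC, peaks covered 37.6% of the coding bases in last exons, 38.6% in internal exons of 400 nt or more, 15.6% in first exons and 4.96% in internal exons under 400 nt. Where the whole coding sequence of a gene with introns lay in 1 exon (55 genes), they covered 47.6%, above the intronless value, as in the other lists (36.1% in PP and 45.0% in A5-KO PP, for example). The intronless value in hPSC thus stood within 2 percentage points of the last and the long internal exons and far above the short ones. Short internal exons had the lowest share in the other lists too, while last exons stood above long internal exons in DE, PP and hILO. In A5-KO PP the intronless genes had 36.1%, last exons 37.5%, long internal exons 41.2% and short internal exons 8.29%. In hILO the intronless value of 28.7% lay below that of last exons at 35.4%. Among genes with a peak in all 6 lists the order in hPSC was the other way, with 48.4% for intronless genes, 45.5% for last exons and 44.7% for long internal exons. In the other 5 lists intronless genes stayed below last exons for these genes, by the least in WT PP (59.5% against 60.1%) and by the most in hILO (36.4% against 40.9%). They stood above long internal exons in DE (37.8% against 34.2%), hILO (36.4% against 35.6%) and, narrowly, WT PP (59.5% against 59.4%). In PP (32.6% against 33.7%) and A5-KO PP (47.7% against 53.2%) they stood below them.

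**Figure D1:**
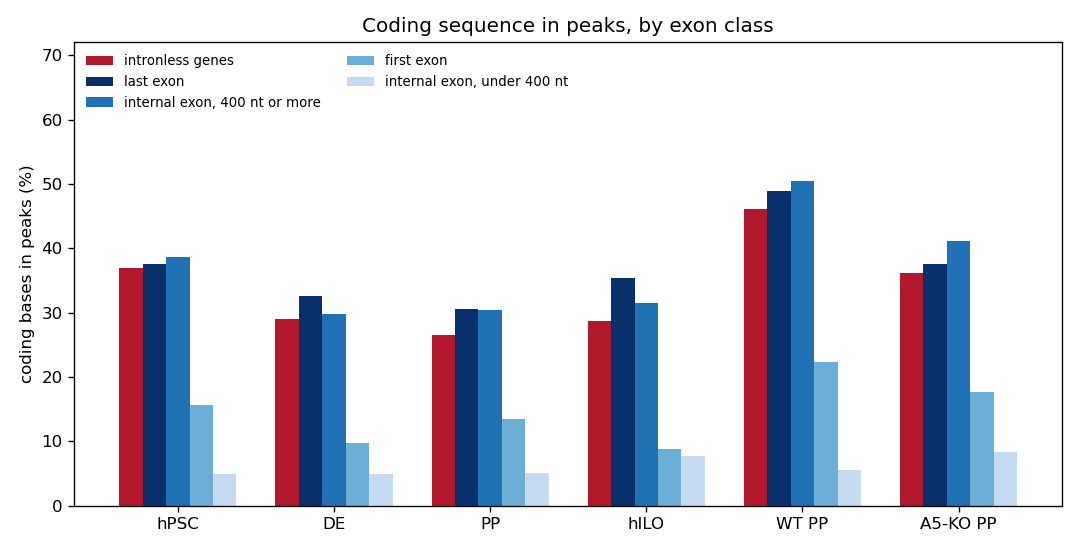
Percent of coding bases in peaks (y axis) by list (x axis) for intronless genes (red) and, in genes with introns, for last, long internal, first and short internal exons (blue shades). Among genes with a peak in the list, intronless genes stood below last and long internal exons in each list. Their values ran from 26.6% in PP to 46.1% in WT PP. They stood above first and short internal exons, and short internal exons never passed 8.29%.

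Coverage also rose along the coding sequence of intronless genes. In hPSC, 23.3% of the bases in the first of 5 equal parts of the coding sequence and 52.3% in the last lay in peaks, against 12.4% and 21.8% in genes with introns. From the first to the last part it rose from 13.5% to 46.1% in PP, from 15.2% to 49.1% in hILO, from 28.5% to 57.9% for WT PP, and from 19.5% to 50.3% for A5-KO PP. In the 3′ UTR peaks covered 19.5% of bases in hPSC and 15.8% to 22.5% in the other lists, and in genes with introns 7.72% to 14.0%.

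The genes with a member were longer than those without. Their transcripts had a median of 2483 nt with a 3′ UTR of 924.5 nt, and the intronless genes without a peak 988 nt with 75 nt. Their coding sequences were alike, 1038 nt and 936 nt. On chromosome X lay 29 of the 286 genes (10.1%), against 3.82% of genes with introns and a peak and 6.86% of intronless genes without a peak. The mitochondrial genome gave 7 to 17 members a list, on 8 genes, and without them the coding share was 46.7% to 53.0%. Another gene's exon on the opposite strand overlapped 10.8% of the members, and 39 of the genes, with 219 peaks, have a copy of at least 300 nt at 95% identity or more elsewhere (TTC30A and TTC30B, ZXDA and ZXDB, RAB6C and RAB6D, HCAR2 and HCAR3), so their peaks cannot be placed with certainty on one of the copies.

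The members were fewer in PP and hILO than in hPSC and DE, with no fall from PP (355) to hILO (358). This order depends on the threshold: with p below 1e-10 the stages had 213, 177, 134 and 228, most of all in hILO, although p-values may be displaced. Members made up 1.53%, 1.42%, 1.22% and 1.14% of all peaks from hPSC to hILO, while peaks on genes with introns went from 25516 in hPSC to 22174 in hILO. A member gene carried 2.63, 2.41, 2.11 and 1.98 peaks in the same order. With introns the values were 2.80, 2.62, 2.66 and 2.56. Genes with 5 or more members numbered 23, 18, 12 and 5 in that order. These were 10.8%, 9.33%, 7.14% and 2.76% of the intronless genes with a peak, against 16.2%, 13.2%, 14.2% and 12.5% with introns. Per kilobase of transcript intronless genes still had more peaks, 0.90 in hPSC and 0.66 in hILO, than genes with introns at 0.62 and 0.56. Only genes with a peak in the list count here, and intronless ones were shorter. Over all lists their median transcript was 2483 nt, against 3604 nt with introns. The part of length in the values per kilobase was not tested. The coding coverage of the 115 genes with a peak in all 6 lists was 48.4%, 37.8%, 32.6% and 36.4%, lowest in PP. Genes with introns and a peak in all 6 lists had 20.1%, 16.6%, 15.9% and 19.0%, also lowest in PP. In batch 2, WT PP and A5-KO PP had 2.53 and 2.74 peaks a gene, 22 and 33 genes with 5 or more (9.87% and 15.2%), and 46.1% and 36.1% of coding bases in peaks, and the median length of a member was 225 nt and 200 nt. With introns there were 3.13 and 3.20 peaks a gene, and 21.0% and 21.7% of genes had 5 or more. Their coding coverage was 20.6% and 18.6%, and their median peak length 175 nt in both lists.

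The members of a stage were then looked up in the stage before it. Sharing required that same-strand peaks of the other list together overlay over 50% of the exonic bases of a peak. Of the members in DE, 75.5% (351 of 465, 71.4 to 79.2) were shared with hPSC, and of those in PP 66.8% (61.7 to 71.5) with DE. If more than 50% of both peaks had to overlap, the shares for DE, PP and hILO in the stage before were 51.2%, 48.2% and 44.7%, and those of genes with introns 49.0%, 41.5% and 37.5%, so the gap for DE was then about 2 percentage points. Of the hILO members, 54.5% (49.3 to 59.6) were shared with PP and 74.0% (69.2 to 78.3) with hPSC. For peaks of genes with introns the shares were 66.4%, 57.3%, 46.0% and 55.7%, each below the interval of the members. Members of 1 gene are not independent, so these intervals are too narrow to serve as a test. Read from the earlier list, 51.2% (47.0 to 55.3) of hPSC members were found again in DE, against 53.1% with introns, and 48.2% of DE members in PP, against 48.4%. In hILO, 44.6% (40.5 to 48.7) of hPSC members were found, against 50.6%. Of PP members, 63.7% (58.5 to 68.5) were found in hILO, against 60.9%. In the first 2 and the last of these directions the value for genes with introns lay within the interval of the members, and in that from hPSC to hILO above it. On genes without a peak listed under them alone in DE lay 92 of the 274 hPSC members not found there, against 2331 of 11959 for genes with introns. In batch 2, 67.2% (63.3 to 70.8) of A5-KO PP members were shared with WT PP, against 52.3% with introns, but with more than 50% of both peaks the values were 35.4% and 34.0%. From WT PP, 49.4% (45.3 to 53.5) were found in A5-KO PP, against 49.4% with introns. Of the hPSC members in 5′ UTRs, 12 of 43 (27.9%, 16.7 to 42.7) were found in DE, and of those in 3′ UTRs 58.0% (51.3 to 64.5). Genes with introns had similar values, 28.4% and 62.4%.

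**Figure D2:**
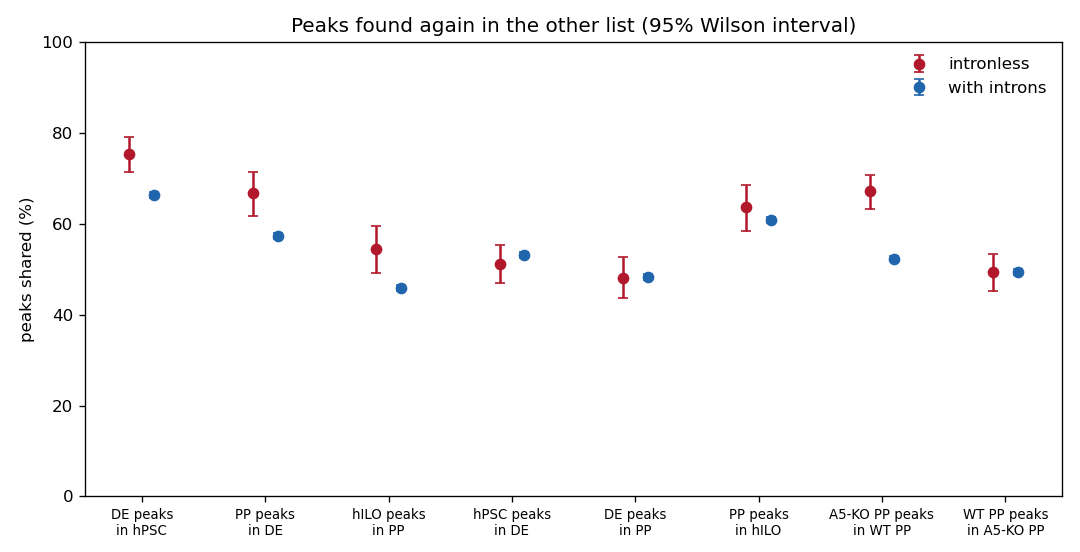
Percent of the peaks of a list that were found again in another list (y axis) for 8 directions (x axis), for intronless genes (red) and genes with introns (blue), with 95% Wilson intervals. Intronless genes stood higher when a later stage was looked up in the earlier one (66.8% against 57.3% for PP in DE), by less where more than 50% of both peaks had to overlap (48.2% against 41.5%), and the value for genes with introns lay within their interval in the 3 opposite steps drawn.

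Of the 286 genes, 115 had a member in all 6 lists and 125 in all 4 stages of batch 1. Of 12764 genes with introns and a peak, 5488 had one in all 6 lists, a similar share. A member in 1 stage alone was found in 51 genes, namely 21 for hPSC, 14 for DE, 5 for PP and 11 for hILO. In these stages 213, 193, 168 and 181 intronless genes had a peak. Genes with introns were not counted in this way, so these numbers are not read as particular to intronless genes. FOXD3, a forkhead factor of pluripotent cells on chromosome 1 from 63322567 to 63325128, had 5 peaks in hPSC, which covered 43.9% of its transcript, and none in the other 5 lists. They lay in the 5′ UTR (2 peaks), in the coding sequence (2 peaks) and 183 nt after the stop codon. POU3F1, a POU factor of early epiblast, had 4 peaks in hPSC and none elsewhere. SOX3 had 4 in hPSC, none in DE, PP and hILO, and 1 in WT PP. FAM43A had 1 in hPSC and, of the 4 stages, in no other, but 6 in either list of batch 2, so a stage pattern in batch 1 did not carry over to the other batch.

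On the DE side, REP15, a Rab effector, had 2 peaks covering 41.3% of its transcript in DE and none in the other 5 lists. MAFA, a regulator of insulin transcription in beta cells, had 1 in DE and 1 in WT PP. CTAGE6 and CTAGE9, which have near-identical copies, had 1 each in DE. Among the 5 genes with peaks in PP alone of the stages were FOXD2 (2 peaks), TAS2R19 (2 peaks), KIF4B and NACA2 (1 each), the last 2 with near-identical copies (KIF4A and NACA). FOXD2 also had 3 and 2 in batch 2. Among the 11 genes of hILO alone were SMIM32 with 3 peaks over 41.3% of its transcript, ARL14, a small GTPase of secretory epithelia, with 2 over 69.8%, RNF186, a gut ubiquitin ligase, with 1 over 29.9%, and DNAJB7 with 1 over 3.90%. ARL14 had 1 peak over 71.8% of the transcript in WT PP as well, and it was also listed with a peak in A5-KO PP. Peaks in batch 2 are not given for each gene named here. HSPA6, an inducible heat shock protein with a near-identical copy (HSPA7), had 2 in hILO and none in the other 5 lists.

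The family counts stand against 286 of all 957 intronless genes with a peak, of which 213, 193, 168 and 181 had one from hPSC to hILO, and 223 and 217 did so in batch 2. All members numbered 561, 465, 355 and 358 over the stages, so a lower count in PP and hILO is shared by the members as a whole, and no family was tested against the rest. The AP-1, C/EBP and immediate early factors had a peak on all 7 genes, with 6 or 7 of them in each list. JUN had 4, 2, 4 and 3 peaks from hPSC to hILO and 4 (WT PP) and 5 (A5-KO PP) in batch 2, and each list had at least 1 in the 3′ UTR and 1 in the coding sequence. JUNB had 4, 3, 2 and 1 over the stages, and the share of its transcript in peaks was 47.8%, 53.3%, 17.8% and 9.56%, then 75.1% (WT PP) and 45.1% (A5-KO PP). In PP and hILO its peaks lay in the 3′ UTR alone. CEBPB had 2 in each stage and 1 and 3 in batch 2, covering 21.8% to 31.3% of the transcript in the first 5 lists and 58.5% in A5-KO PP.

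SOX factors, HMG-box regulators of progenitor states, had peaks on 5 of 8 genes. Their peaks numbered 18, 14, 8 and 8 from hPSC to hILO, and 6 and 14 in batch 2 (WT PP, then A5-KO PP). SOX4, which is needed for endocrine cells in the developing pancreas and lies on chromosome 6 from 21593751 to 21598619, had 6, 4, 6 and 5 peaks in the stages, then 3 and 7 in WT PP and A5-KO PP. Peaks covered 50.3%, 39.0%, 48.3%, 53.9%, 72.4% and 69.3% of its transcript, so the fewer peaks of WT PP were longer ones. SOX12 had 40.1% covered in hPSC and 29.4% in DE, then 15.0% in PP and 14.4% in hILO, and 18.2% and 48.1% in batch 2. SOX21 had 4 peaks in hPSC and 5 in DE, none in PP or hILO, and 1 in each list of batch 2.

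Among receptors, 5 of 6 Frizzled genes, which bind Wnt ligands, had peaks, with 11, 6, 9 and 3 over the stages and 17 and 18 in batch 2. FZD7 had 5, 3, 2 and 1 peaks over the stages, and the covered share of its transcript was 26.2%, 21.8%, 14.2% and 4.91%. It had 3 and 6 peaks in batch 2. FZD1 had 1 to 3 in the stages and 7 and 5 in batch 2. Of 242 other seven-transmembrane receptors, 18 had a peak in any list. ADRA2A, the adrenergic receptor that restrains insulin secretion, had 4, 2, 3 and 3 in the stages, 3 in WT PP and none in A5-KO PP. P2RY1, a purinergic receptor, had 5, 3, 4 and 0, then 6 and 4. All 6 small GTPases and 6 of 9 BTB and Kelch genes, adaptors of cullin ligases, had peaks. RHOB, a small GTPase of endosomes, had 4, 4, 6 and 2 in the stages and 3 in each list of batch 2.

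Of 34 intronless genes on the list of pancreas and stem cell biology, 28 had a peak, 23, 17, 21 and 18 of them over the stages, and 23 and 19 in batch 2, against the 213, 193, 168, 181, 223 and 217 of all intronless genes. INSM1, a zinc finger factor of endocrine progenitors, had 1, 0, 2 and 3 peaks over the stages, those of hILO covering 28.1% of its transcript, and none in batch 2. ATOH1, a bHLH factor of secretory lineages, had 2 in hPSC, in PP and in WT PP and none in DE, hILO and A5-KO PP. FOXQ1, a forkhead factor, had 0, 2, 1 and 2 over the stages, with 5 and 3 in batch 2. FOXC1 had 4 in WT PP and none in A5-KO PP.

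The genes with most members over the 6 lists were FEM1A with 39, SOX4 with 31 and IRF2BPL, RBM15B, CCDC8 and TTC30A with 28 each. RBM15B, an adaptor of the m6A methyltransferase complex, had 32.1%, 23.0%, 10.6% and 30.6% of its transcript in peaks from hPSC to hILO, and 49.1% and 43.0% in batch 2. Its long coding peak, of 1300 nt in hPSC and 1325 nt in hILO, was not listed in PP, where both of its peaks lay in the 3′ UTR. CCDC8, a subunit of the 3M cullin complex, had 67.2%, 45.6%, 33.2% and 53.3% in peaks over the stages. IRF2BPL had 41.4%, 22.2%, 22.2% and 23.4% in the stages and 68.8% and 44.2% in batch 2.

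Log2 enrichment could be followed through all 4 stages on 8 genes with rows in step. For each, the longest hPSC peak and the peaks that shared most bases with it were taken, and errors are counting errors. This choice starts from hPSC, and all pairs in step had medians below 0 from hPSC to DE and from DE to PP, so a high hPSC value is a description of these peaks only. SOX4, in the 3′ UTR around the stop codon, had 3318, 3173, 5136 and 8852 input reads from hPSC to hILO and 58472, 12860, 46367 and 39952 IP reads. Its log2 enrichment was 2.62 ± 0.026, 2.32 ± 0.029, 2.27 ± 0.021 and 2.17 ± 0.017. The input reads were highest in hILO and the enrichment highest in hPSC, and the steps between stages were -0.30 ± 0.038, -0.04 ± 0.036 and -0.10 ± 0.027, so the step from DE to PP was close to its counting error. CENPB, which binds centromeric DNA, had 2.36 ± 0.053, 2.06 ± 0.046 and 1.75 ± 0.051 in the first 3 stages and was higher by 0.35 ± 0.067 in hILO than in PP, with 780, 1265, 915 and 1343 input reads. TBCC, a tubulin folding cofactor, had 2.09 ± 0.074, 1.95 ± 0.071, 1.64 ± 0.084 and 2.08 ± 0.052. Both were lowest in PP. IRF2BPL had 2.31 ± 0.047, 2.20 ± 0.11, 1.78 ± 0.092 and 1.72 ± 0.048, but the DE value is for a 275 nt peak, and a second DE peak of 225 nt inside the bounds of the PP peak had 1.51 ± 0.11, so the stages are not compared over like bounds. UTP3, a ribosome biogenesis factor, had 2.06 ± 0.041, 1.77 ± 0.034, 1.72 ± 0.060 and 1.83 ± 0.040. Its PP value is for a 475 nt peak, against 1025 nt in hPSC and hILO. Other PP peaks within the hPSC bounds had 1.28, 1.21 and 1.40. RNF113A, a spliceosome-associated ubiquitin ligase on chromosome X, had 1.73 ± 0.090, 1.46 ± 0.10, 1.39 ± 0.089 and 1.37 ± 0.064. MOCS3, of molybdenum cofactor synthesis, had 2.55 ± 0.10, 2.48 ± 0.14, 2.33 ± 0.12 and 2.32 ± 0.093, and KBTBD7, a cullin adaptor, 2.37 ± 0.068, 2.47 ± 0.11, 2.35 ± 0.16 and 2.23 ± 0.10. In these last 2 genes the values of neighbouring stages stood within their counting errors for the peaks chosen. Other peaks that shared bases with them differed more. A DE peak of 250 nt in MOCS3 differed from the hPSC peak by -0.48 ± 0.18. A PP peak of 325 nt in KBTBD7 differed from the DE peak by -0.60 ± 0.25. The stages are therefore not compared over like bounds here either.

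**Figure D3:**
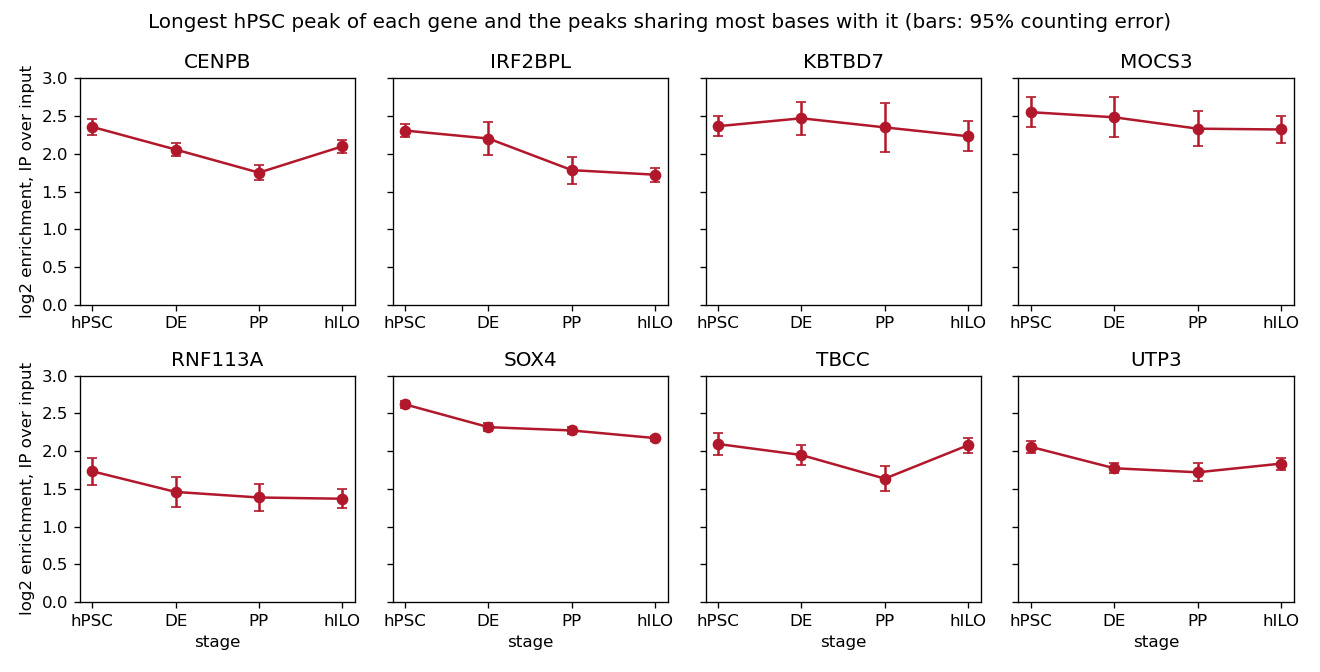
Log2 enrichment of IP over input (y axis) by stage (x axis) for the longest hPSC peak of 8 intronless genes with rows in step and the peaks that share most bases with it, with bars of 95% counting error. Enrichment was highest in hPSC in 7 of the 8 genes, KBTBD7 being the exception and TBCC nearly level between hPSC and hILO, and lowest in PP in CENPB, TBCC and UTP3. Peak bounds are not alike between the stages in IRF2BPL, UTP3, RNF113A, MOCS3 and KBTBD7. The peaks were chosen by their length in hPSC, and all pairs in step also had a median difference of -0.12 from hPSC to DE and -0.20 from DE to PP.

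Over all shared pairs in step whose peaks both had 50 input reads or more, members had a median difference in log2 enrichment of -0.18 from hPSC to DE (41 pairs on 16 genes, quartiles -0.38 and -0.06), with 32 of 41 pairs below 0. All pairs in step gave -0.12 over 5392 pairs. From DE to PP the median was -0.27 (20 pairs on 8 genes), with 17 below 0, against -0.20 over 1552 pairs. From PP to hILO it was 0.10 (17 pairs on 8 genes), with 8 below 0, against -0.02 over 1205 pairs. The median counting error of a pair was 0.11 to 0.14, and several pairs share a long peak of the earlier list, so they are not independent. A difference of 1 or more was seen in 1 member, IRF2BPL, which fell by 1.06 from hPSC to DE where part of its long coding peak met a 50 nt peak. The background was 0.593% of all pairs lower by 1 or more and 0.223% higher in that step, 1.29% and 0.193% from DE to PP, and 0.913% and 0.166% from PP to hILO, and no other pair of members differed by 1 or more. For WT PP and A5-KO PP no pair of members was in step, so no enrichment in step is compared between the genotypes. For the same reason ALKBH5 itself could not be checked by its reads: it had 3 peaks in each stage and 4 and 5 in WT PP and A5-KO PP, none of them in step. Over all pairs as listed, displaced rows included, the members' medians were -0.16, -0.31 and -0.0029 for the 3 steps of batch 1 and -0.10 from WT PP to A5-KO PP (162, 126, 125 and 131 pairs). These medians depend on the scaling: with 1 offset per list they were -0.0046, -0.045, 0.056 and -0.62, and less the median of all pairs of like GC content -0.024, -0.060, 0.053 and -0.14. Those from WT PP to A5-KO PP rest on member rows not known to be in step. They are printed as listed and not read as a difference between the genotypes.

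On genes in step in 2 stages, APLNR, the apelin receptor of early mesendoderm, had 1 peak with 5 input and 119 IP reads in hPSC and 3 peaks with 622, 219 and 96 input reads in DE. RHOB had input reads of 25, 184, 120 and 93 in its 4 hPSC peaks and 53, 358, 222 and 350 in the 4 DE peaks at the same places, from the 5′ to the 3′ end. Its log2 enrichments were 1.78, 1.88, 1.74 and 2.39 in hPSC and 1.47, 1.82, 1.55 and 2.16 in DE, so the most 3′ peak was the strongest in both. FZD7 had its strongest peak in the 3′ UTR in both stages, with 3330 input reads and 2.53 ± 0.026 in hPSC and 2881 and 2.38 ± 0.030 in DE, and weaker ones in the coding sequence, between 1.18 and 1.64. SOX21 had 142 input reads and 2.33 ± 0.12 in its 5′ peak in hPSC and 54 and 1.90 ± 0.22 in DE.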

How the data were processed

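m6A immunoprecipitation sequencing gave 24 libraries, 2 IP and 2 input for each of 6 populations. Per the labels and the study's methods the authors used fastp for trimming, HISAT2 for alignment (GRCh38) and exomePeak2 for peak calling on the pooled libraries of a population, with stated thresholds of IP/input of at least 1.5 and p below 1e-05. The deposited lists also hold rows above that p: as listed, it was met by 346 of 561, 282 of 465, 217 of 355, 328 of 358, 301 of 565 and 283 of 594 members. The deposited lists give bounds, gene, input and IP read counts, log2 enrichment and p-values; whether pooled counts are sums or means, and the depth of each library, are not given in the sources used here. Members were found with GENCODE 44, and their sequence was read from the hg38 genome (pandas 2.3.3, pysam 0.24.0, minimap2 2.31-r1302 for copies). The members and lists were chosen with earlier results of these data known. Pairs needed 50 input reads in both lists, and the counting error used a pseudocount of 0.5. Scripts were tested on simulated data. Genes were named by number of peaks, membership of the pancreas and stem cell list, peaks in 1 stage, and change in enrichment; the last is not given, and the ranking by input reads used in parts of the rule is affected, because the value columns were found displaced against the positions. Other genes and all genes followed in step were chosen after their values were seen. The counts of the pancreas and stem cell list include 1 gene whose own values are not reported here.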

Additional observations from a re-analysis of the deposited data

How the results depend on the processing

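No paired analysis was possible because each list pools its libraries, and for the same reason no replicate could be left out. Alternatives that use reads or p-values rest on rows that may be displaced. With p below 1e-10 the members numbered 213, 177, 134, 228, 183 and 139 (hPSC, DE, PP, hILO, WT PP, A5-KO PP), so hILO had the most of the stages, and the coding share in hPSC was 59.9%. Any overlap with the coding sequence gave shares of 68.3%, 67.0%, 64.0%, 59.2%, 65.7% and 65.6%. The shares of DE, PP and hILO members found in the stage before were 80.2%, 74.9% and 64.8% with any overlap, 51.2%, 48.2% and 44.7% with more than 50% of both peaks, and 82.8%, 76.7% and 63.7% on genes with a peak in the earlier list. Counted from the earlier list, a choice made after seeing the data, they were 51.2%, 48.2% and 63.7%. For A5-KO PP members found in WT PP the values were 72.9% with any overlap, 35.4% with more than 50% of both peaks and 49.4% counted from WT PP. The motif ratio with DRACH was 1.38, 1.44, 1.41, 1.46, 1.26 and 1.35, and with GGAC in the coding sequence 1.59, 1.48, 1.27, 1.17, 1.26 and 1.22. Coding coverage of genes with a peak in all 6 lists was 48.4%, 37.8%, 32.6%, 36.4%, 59.5% and 47.7%. Median differences in log2 enrichment with 1 offset per list were -0.0046 (hPSC to DE), -0.045 (DE to PP), 0.056 (PP to hILO) and -0.62 (WT PP to A5-KO PP). Less the median of all pairs in the same GC bin, the members' medians were -0.024, -0.060, 0.053 and -0.14 in that order. Without a minimum of input reads the genotype difference was 0.10, and with rows in step, a choice made after seeing the data, that from PP to hILO was 0.10; the sign of both is therefore not fixed. Leaving out genes with a near-identical copy, or the mitochondrial genome, moved none of the counts and coding shares beyond counting error or 1.5 times. The first of these, and the second for coding shares, were added after seeing the data.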
